A study of Danio rerio with 6 samples.

Results

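Expression of 5 genes of glutathione use and supply was examined in dissected zebrafish (*Danio rerio*) livers: the pi-class glutathione S-transferase genes *gstp1.1* and *gstp1.2*, the glutamate-cysteine ligase subunit genes *gclc* and *gclm*, and the glutathione reductase gene *gsr*. They were chosen by symbol, through the Entrez gene ID of each row, and are 5 of the 6502 rows of the deposited table that carry a gene ID. All 5 were in the table and all 5 passed the filter on low counts.

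Livers came from larvae at 7 days post fertilization (dpf), and each sample was a pool of 15 livers. The 3 crkeap1a/b pools came from crispants, embryos injected at the one-cell stage with Cas9 and guides against both zebrafish Keap1 paralogs, *keap1a* and *keap1b*. Editing in such animals is mosaic, is not restricted to one cell type, and was not measured in these libraries. The 3 WT pools had no edited gene according to the labels, which do not say whether WT embryos received a control injection. Nothing in the labels says whether pools of a group came from separate clutches, so p-values speak for these pools and not for clutches. The study's methods state that controls were clutch siblings, but not which pools shared a clutch.

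Glutathione is the main small thiol of the cell. Glutamate-cysteine ligase joins glutamate to cysteine in the first and rate-limiting step of its synthesis; Gclc is the catalytic subunit and Gclm a modifier that makes the enzyme more efficient. Glutathione synthetase then adds glycine, and glutathione reductase uses NADPH to return oxidised glutathione to its reduced form. Glutathione S-transferases couple glutathione to electrophiles, and the pi class is a classical target of Nrf2, the stress-induced transcription factor that Keap1 holds down. Genes for the ligase subunits and the reductase are also known Nrf2 targets in mammals, so the comparison of crkeap1a/b with WT livers asks how this group of genes stands when both Keap1 genes are targeted.

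The libraries were not alike. Totals ran from 11168187 to 12521687 counts in crkeap1a/b and from 9491003 to 15030262 counts in WT, but the replicate 3 libraries of both groups held many genes at 0 counts: 47.6% in crkeap1a/b and 53.2% in WT, against 2.83% to 13.1% in the other 4. Replicate 3 is also the sample whose description carries the letter b in both groups, while the others carry the letter a. Descriptions also carry a number, which is 1 for crkeap1a/b replicate 1 and WT replicate 2 and 2 for the other pools. Number and letter together match crkeap1a/b replicate 1 to WT replicate 2, and crkeap1a/b replicate 2 to WT replicate 1. They also match the replicate 3 pools to each other. No test paired the pools by this match. What the letter and the number stand for is not given. Results are therefore also given for the 4 pools of letter a. Normalised counts (CPM) are counts set to a common library total after TMM scaling. A gene was called at a limma-voom adjusted p under 0.05 over the 6386 genes tested. Limma-voom shares variance over genes, and here the shared part outweighed a gene's own spread between pools. In the fit of letter a, a gene's own spread played no part in its SE or p-value. The targeted genes overlapped between groups, with 0 to 307 counts of *keap1a* in crkeap1a/b and 0 to 379 in WT, and 0 to 489 counts of *keap1b* in crkeap1a/b and 10 to 314 in WT. Their log2 fold changes of −0.80 ± 3.69 and −0.74 ± 3.31 (SE) changed sign between fits, and tags from transcript 3′ ends do not read the edited sites.

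Each of the 5 genes had a higher normalised count in every crkeap1a/b pool than in any WT pool. Over the genes tested, 8.39% showed that order. For *gstp1.1*, which entered the table through the crkeap1a/b pools alone, that order was fixed by its entry and is no support. The 2 pi-class genes were called higher and the other 3 were not, where 0.595% of the genes tested were called higher and 0.595% lower. Within letter a, *gstp1.2*, *gclc* and *gsr* were called, where 2.31% of 6456 genes were called higher and 2.15% lower. For *gclc* the separation held under TMM scaling alone. With library totals as the scale its lowest crkeap1a/b pool was at 83.4 CPM and its highest WT pool at 84.0 CPM, and with RLE factors these were 77.4 and 80.1 CPM. The number of genes called, 38 higher and 38 lower, itself moved with single pools: 9, 0 and 125 were higher without crkeap1a/b replicates 1, 2 and 3, and 0 without WT replicate 1 or WT replicate 2. Lower genes numbered 22 and 1 without crkeap1a/b replicates 1 and 2, and 1, 4 and 71 without WT replicates 1, 2 and 3.

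**Figure D1:**
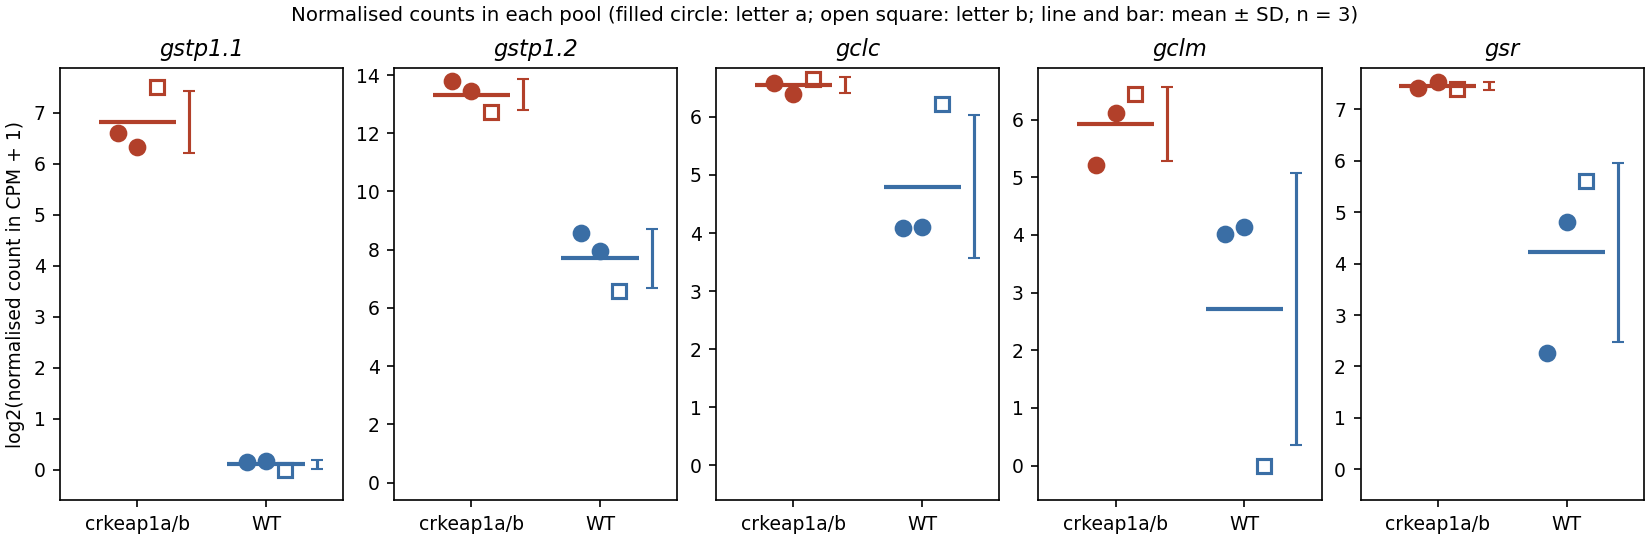
Normalised counts of the 5 genes on the log2(CPM + 1) scale, with crkeap1a/b pools in red at the left of each panel and WT pools in blue at the right; filled circles are pools of letter a, open squares pools of letter b, and lines with bars are means ± SD (n = 3). The crkeap1a/b pools lie above the WT pools in each panel, and the WT pool of letter b sits at 0 for *gclm* and close to the crkeap1a/b pools for *gclc*.

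*gstp1.2* (Entrez 79381) was the member with the narrowest interval. Its normalised counts were 14166, 11249 and 6814 CPM in crkeap1a/b replicates 1 to 3, against 380, 248 and 94.1 CPM in WT replicates 1 to 3. The lowest crkeap1a/b pool was thus 17.9 times the highest WT pool, and replicate 3 was the lowest pool of its group in both. As a share of all counts of a library, the gene took 0.917% to 1.32% in crkeap1a/b and 0.0107% to 0.0307% in WT. Means were 10743 ± 3702 CPM in crkeap1a/b and 241 ± 143 CPM in WT (SD, n = 3 each), a ratio of 44.6. The log2 fold change was 5.74 ± 0.67 (SE; 95% interval 4.41 to 7.07; adjusted p = 1.31e-09 by limma-voom). edgeR's quasi-likelihood test, which called 0.251% of genes higher, gave 5.48 with an adjusted p of 2.45e-06. The gene was 40.5 times higher in crkeap1a/b within letter a, and 72.4 times higher in the single pair of letter b. Its limma-voom call was lost without crkeap1a/b replicate 2, without WT replicate 1 and without WT replicate 2, where the log2 fold changes were 5.70, 6.22 and 5.95 and the adjusted p-values 1 each. In those 3 fits 1, 4 and 14 of all genes tested had an unadjusted p under 0.05.

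*gstp1.1* (Entrez 553169), the second pi-class gene, was close to undetected in WT livers. It had 1079, 1005 and 2708 counts in crkeap1a/b replicates 1 to 3, against 1, 1 and 0 counts in WT replicates 1 to 3. No WT library rose above the floor of 3 counts. Genes of the deposited table all reached at least 0.512 CPM in 3 or more pools, so *gstp1.1* entered through the crkeap1a/b pools alone. That its crkeap1a/b pools lay above its WT pools was thus fixed by its entry. Pooled over libraries, 4792 counts in crkeap1a/b stood against 2 in WT. The ratio, scaled to library size, was 2157, with an exact 95% interval of 597 to 17818 that covers counting error only. The fitted log2 fold change of 10.26 ± 2.49 (SE) came with adjusted p = 0.0135 in limma-voom, and its size depends on how counts of 0 are offset. edgeR gave an adjusted p of 0.00316 and DESeq2 gave 1.05e-11, whereas limma with a trend gave 0.181 and the 4 pools of letter a gave 0.138. With 1 pool left out, the adjusted p was 0.00316 without crkeap1a/b replicate 3 and 1 without crkeap1a/b replicate 1 or 2 or WT replicate 1 or 2. It was 0.0679 without WT replicate 3.

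The 2 pi-class genes lie next to each other on one chromosome of the RefSeq assembly GRCz12tu, with 0 annotated genes between them. They are close paralogs, and reads common to both could have been assigned to either or dropped in the counting. The split between them is therefore uncertain, while their sum is not affected by misassignment within the pair. Summed, they had 158859, 142407 and 105084 counts in crkeap1a/b, against 3632, 2025 and 1615 counts in WT. The log2 fold change of the sum was 5.76 ± 0.66 (SE; adjusted p = 6.84e-10 by limma-voom). That call was lost without the same 3 pools as for *gstp1.2*, at 5.73 without crkeap1a/b replicate 2 and 6.24 and 5.97 without WT replicates 1 and 2, with adjusted p-values of 1. *gstp1.1* made up 0.679%, 0.706% and 2.58% of the pair's counts in crkeap1a/b replicates 1 to 3, with exact 95% intervals of 0.639% to 0.721%, 0.663% to 0.751% and 2.48% to 2.67%. In WT it made up 0.0275%, 0.0494% and 0%, with upper limits of 0.153%, 0.275% and 0.228%. The share was thus higher in each crkeap1a/b pool than the upper limit in any WT pool, and crkeap1a/b replicate 3 stood apart from the other 2. These intervals cover counting error only, and not reads assigned to the wrong gene of the pair.

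The ligase subunits differed by less. *gclc* (Entrez 326857), the catalytic subunit, was at 94.7, 83.1 and 100.2 CPM in crkeap1a/b replicates 1 to 3, against 15.9, 16.2 and 73.6 CPM in WT replicates 1 to 3. The crkeap1a/b pools were close together, whereas WT replicate 3 was far above the other WT pools. The means were 92.6 ± 8.74 CPM in crkeap1a/b and 35.2 ± 33.2 CPM in WT (SD, n = 3 each). The log2 fold change of 1.41 ± 1.23 (SE; 95% interval −1.04 to 3.85) did not pass (adjusted p = 0.864 by limma-voom). Within letter a it was 2.48 ± 0.75 (SE; adjusted p = 0.0251 by limma-voom), the lowest over the alternatives tried, which ran up to 1. In the pair of letter b the crkeap1a/b pool was 1.36 times the WT pool, against 5.54 times within letter a.

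*gclm* (Entrez 333974), the modifier subunit, was at 36, 68.2 and 86.3 CPM in crkeap1a/b replicates 1 to 3, against 15.2, 16.7 and 0 CPM in WT replicates 1 to 3. By counting error alone, the 0 in WT replicate 3 allows up to 3 counts in that library, a level of 0.175 CPM. In that library 53.2% of genes were at 0, and detected genes had a median of 806 counts. The medians were 168 and 145 counts in WT replicates 1 and 2. A 0 there may therefore hide a level above 0.175 CPM. Means were 63.5 ± 25.5 CPM in crkeap1a/b and 10.6 ± 9.22 CPM in WT (SD, n = 3 each). The fitted log2 fold change of 5.28 ± 2.82 (SE; 95% interval −0.34 to 10.90) came with adjusted p = 0.685 in limma-voom. The value was 1.96 without WT replicate 3, 1.68 ± 0.78 (SE) within letter a, and 2.58 in edgeR. The gene passed in none of the 16 alternative fits, of which the lowest adjusted p was 0.305, within letter a, where the unadjusted 95% interval was 0.15 to 3.22.

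Because both subunits belong to one enzyme, their proportion was compared within pools, where library scaling has no part in shares of counts. Of the counts of both genes together, *gclc* made up 72.5%, 54.9% and 53.7% in crkeap1a/b replicates 1 to 3, with exact 95% intervals of 70.1% to 74.7%, 52.6% to 57.2% and 51.9% to 55.6%. In WT replicates 1 and 2 the shares were 51.2% and 49.3%, with intervals of 45.3% to 57.0% and 43.1% to 55.4%, and in WT replicate 3 all 1263 counts were *gclc*. Replicates 2 and 3 of crkeap1a/b thus lay within the intervals of WT replicates 1 and 2, with crkeap1a/b replicate 1 above them. The log2 ratio of *gclc* to *gclm* was 0.63 ± 0.66 in crkeap1a/b and 2.95 ± 5.09 in WT (SD, n = 3 each). In WT replicate 3 its value of 8.82 depended on the prior count of 2, as *gclm* had 0 counts. For the difference of −2.32 the exact permutation test, two-sided, gave p = 1, where the smallest possible is 0.1. Without WT replicate 3 it came to 0.62 (exact permutation test, two-sided, p = 0.3), so its direction rested on that library.

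*gsr* (Entrez 553575), the reductase gene, was at 168.9, 184.6 and 167.4 CPM in crkeap1a/b replicates 1 to 3, against 3.77, 26.9 and 47.5 CPM in WT replicates 1 to 3. The crkeap1a/b pools differed little, and WT pools spread over a wide range below them. The lowest crkeap1a/b pool was 3.53 times the highest WT pool. Means were 173.6 ± 9.52 CPM in crkeap1a/b and 26.1 ± 21.9 CPM in WT (SD, n = 3 each), a ratio of 6.66. The log2 fold change of 3.01 ± 1.48 (SE; 95% interval 0.05 to 5.97, unadjusted) came with adjusted p = 0.629 in limma-voom. Within letter a it was 4.35 ± 1.01 (SE; adjusted p = 0.000881 by limma-voom), the lowest of all alternatives, which ran up to 1. Tested one at a time by a two-sided exact permutation test of log2 CPM, each of the 5 genes reached p = 0.1, the smallest that 3 pools against 3 allow. Only complete separation of the groups gives that value, so it repeats the order of the pools and adds no evidence. Of 6386 genes tested, 536 had every crkeap1a/b pool above every WT pool and 319 had every one below. The separation was fixed by table entry for *gstp1.1* and held under TMM scaling alone for *gclc*.

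**Figure D2:**
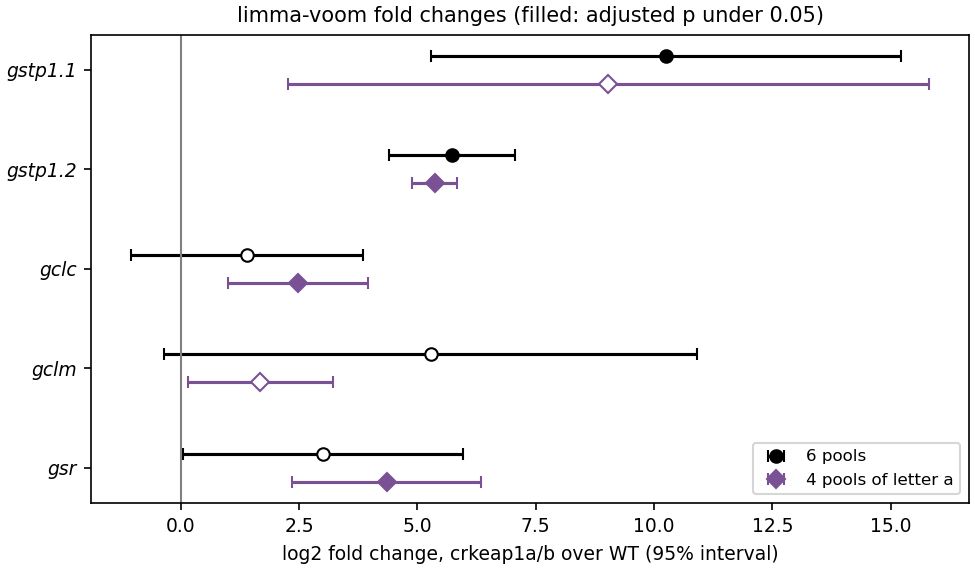
Log2 fold changes of the 5 genes, crkeap1a/b over WT, with unadjusted 95% intervals from limma-voom; black circles use the 6 pools, purple diamonds the 4 pools of letter a, and filled symbols have an adjusted p under 0.05. Both fits give positive values for each gene, from 1.41 for *gclc* to 10.26 for *gstp1.1* over 6 pools. The intervals of *gstp1.2*, *gclc*, *gclm* and *gsr* are narrower within letter a, and that of *gstp1.1* is wider.

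The estimates kept one direction throughout. In the 16 alternative fits the log2 fold change ran from 8.92 to 10.90 for *gstp1.1*, from 5.02 to 6.22 for *gstp1.2*, from 0.98 to 2.52 for *gclc*, from 1.68 to 6.29 for *gclm* and from 2.15 to 4.35 for *gsr*. The median of all genes tested was 0.36 on the log2 scale and moved between −0.50 and 1.61 with the fit. The lower values for *gclc* lie within the range of that shift. Without crkeap1a/b replicate 3, where the median was 1.61, *gclc* was below it, at 1.26. With the replicate number of the titles as a term, *gclc* was at 0.98 and the median at 0.285. *gstp1.2* passed in 12 of the 16 fits and *gstp1.1* in 5, *gclc* and *gsr* passed in 1 each, and *gclm* in 0, with an unadjusted p of 0.0652 in the 6-pool fit.

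**Figure D3:**
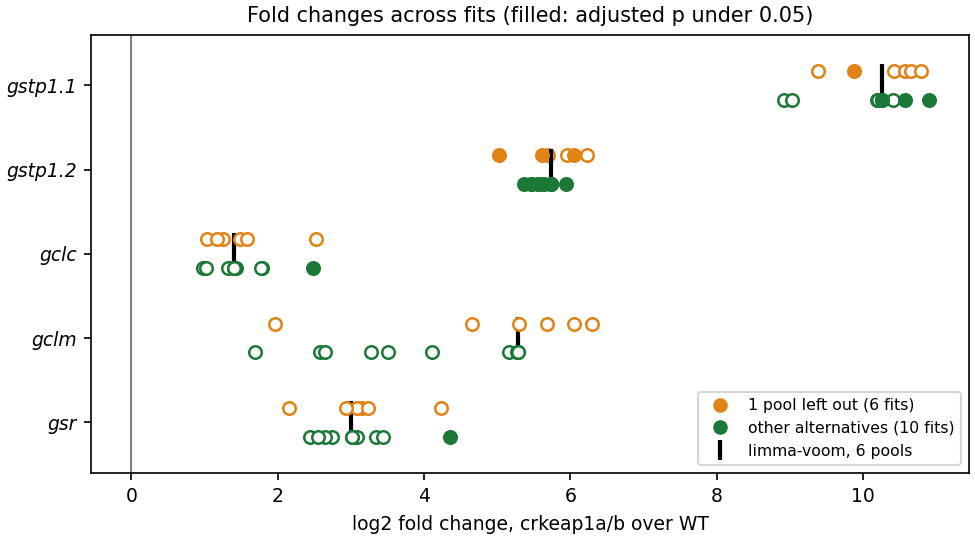
Log2 fold changes of the 5 genes, crkeap1a/b over WT, in each fit; the black bar is limma-voom with 6 pools, orange points leave out 1 pool, green points are the other alternatives, and filled points have an adjusted p under 0.05. No point lies below 0, *gstp1.2* lies between 5.02 and 6.22, and *gclm* spreads from 1.68 to 6.29.

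Across the 6 pools the correlations between the genes were uneven. Pearson's r of log2 CPM, given as a description over pools that include the group difference, was 0.97 between *gstp1.1* and *gstp1.2* and 0.88 between *gclc* and *gsr*. It was 0.063 between *gclc* and *gclm* and 0.30 between *gclm* and *gsr*, pairs in which WT replicate 3 was high for one gene and at 0 for *gclm*. No r was computed without that pool, so the low values are not a trait of the genes. Among 6307 other genes with a symbol, those most like *gstp1.2* were *cmbl* (r = 0.998), a carboxymethylenebutenolidase gene, and *dhdh.1* (r = 0.998), a dihydrodiol dehydrogenase gene. *cmbl* averaged 905 ± 209 CPM in crkeap1a/b and 58.1 ± 19.1 CPM in WT, and *dhdh.1* 2040 ± 400 CPM in crkeap1a/b and 144 ± 62.6 CPM in WT (SD, n = 3 each). As they were picked for following *gstp1.2* over pools of both groups, being higher in crkeap1a/b was part of the choice. Their limma-voom adjusted p-values were 0.000231 and 1.05e-08, and both calls were lost without crkeap1a/b replicate 2, WT replicate 1 or WT replicate 2, at adjusted p-values of 1. The call of *cmbl* was lost without crkeap1a/b replicate 1 as well, at 0.391. With the replicate number of the titles as a block (replicate block) both were lost, at 0.167 and 0.121. *cmbl* was also lost with RLE factors (0.224), and *dhdh.1* with the description letter as a term (0.0758).

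The same ranking gave 2 genes for each of the other members. Those of *gclc* and *gclm* shared the position of WT replicate 3, the highest WT pool for *gclc* and the lowest for *gclm*. For *gstp1.1* the nearest genes were *xrcc5* and *fpr1* (both r = 0.998). They had 281 to 714 and 166 to 464 counts in crkeap1a/b and 0 counts in each WT library. Both thus entered the deposited table through the crkeap1a/b pools alone. As they were picked for following *gstp1.1*, their near absence from WT was part of the choice. Their limma-voom adjusted p-values were 0.0452 and 0.108, and *xrcc5* passed in 2 of the 16 alternative fits. For *gclc* they were *sqor* (r = 0.988), which encodes the mitochondrial sulfide:quinone oxidoreductase, and *lin52* (r = 0.986). *sqor* had 6774, 7277 and 7236 counts in crkeap1a/b and 13, 3 and 2325 in WT, so WT replicate 3 was again the high WT pool; its limma-voom adjusted p was 0.280, and 0.0358 within letter a. For *gclm* they were *krt94* (r = 0.998) and *rnaset2* (r = 0.997), for which WT replicate 3 was the lowest pool, at 116 and 0 counts. For *gsr* they were *hddc2* (r = 0.993) and *prdx5* (r = 0.987), a peroxiredoxin gene with 95 ± 12.7 CPM in crkeap1a/b and 27.0 ± 12.7 CPM in WT (SD, n = 3 each) (adjusted p = 0.770 by limma-voom).

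Other genes that make, use, break down or export glutathione were taken from lists by function. Of 73 listed genes, 38 were in the table and all 38 were tested; the other 35 were not analysed here. Of the 38, 1 was called higher and 2 lower, and 35 did not pass. Over all genes tested, 0.595% were called higher and 0.595% lower. The median log2 fold change was 0.79, against 0.36 over all genes tested. Within letter a, 6 were called higher and 3 lower, with a median of 0.52 against 0.21. There, 2.31% of all 6456 genes tested were called higher and 2.15% lower. edgeR called 0 of the 38, with 10 at an unadjusted p under 0.05, and DESeq2 called 5. Over all 6386 genes tested, edgeR called 16 higher and 6 lower, with 253 at an unadjusted p under 0.05. DESeq2 called 103 of all genes higher and 46 lower.

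Among 11 other transferase genes, *mgst3b*, a microsomal glutathione S-transferase gene, was called higher. It had 36528, 30748 and 20371 counts in crkeap1a/b replicates 1 to 3, against 778, 1343 and 5 counts in WT replicates 1 to 3. The log2 fold change was 8.58 ± 1.74 (SE; adjusted p = 0.000896 by limma-voom), and was 4.66 within letter a, 4.85 in edgeR and 4.25 without WT replicate 3, the pool with 5 counts. Its call was lost in edgeR, at an adjusted p of 0.0578. It was lost without crkeap1a/b replicates 1 and 2, at 0.189 and 1, and WT replicates 1 and 2, at 1 each. DESeq2 (0.0692), RLE factors (0.133), the replicate block (0.430) and the letter as a term (0.602) lost it as well. The gene passed in 6 of the 16 alternative fits. *gsto2*, of the omega class, had 2854 to 3107 counts in crkeap1a/b and 0 to 218 in WT, and *mgst2* had 1779 to 2290 counts in crkeap1a/b and 376 to 591 in WT. Their limma-voom adjusted p-values were 0.313 and 0.619 over 6 pools, and 3.39e-06 and 0.00492 within letter a. Over 6 pools *gsto2* also passed in DESeq2 (0.0119) and limma with a trend (0.0455), but not in edgeR (0.311). Of the 16 alternative fits, *gsto2* passed in 3 and *mgst2* in 1. *gstk1*, of the kappa class, leaned the other way, with 0 to 235 counts in crkeap1a/b and 184 to 1201 in WT (adjusted p = 0.317 by limma-voom). In the 11 genes the median was 0.63, and 7 were positive and 4 negative.

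Of 7 genes of synthesis and precursor supply, *ahcy*, which encodes the enzyme that splits S-adenosylhomocysteine ahead of cysteine formation, was called lower. It averaged 1883 ± 724 CPM in crkeap1a/b and 4097 ± 133 CPM in WT (SD, n = 3 each), with a log2 fold change of −1.25 ± 0.18 (SE; adjusted p = 5.46e-07 by limma-voom). edgeR gave an adjusted p of 0.258. *gss*, the gene for glutathione synthetase, had 370, 193 and 0 counts in crkeap1a/b and 0, 53 and 9 counts in WT, so the groups overlapped and a difference was not detectable at this spread (adjusted p = 0.980 by limma-voom). *cthl* and *slc3a2b*, which encodes a heavy chain of amino acid transporters including the cystine exchanger, had limma-voom adjusted p-values of 0.978 and 1. *cbsb*, named after its values were seen, was lower within letter a alone, at −1.26 (adjusted p = 0.00299 by limma-voom), and at −0.06 over 6 pools.

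Of 7 genes of turnover and export, *chac1*, which encodes an enzyme that breaks glutathione down in the cytosol, was called lower. It had 6648, 6526 and 3143 counts in crkeap1a/b and 16298, 5862 and 27712 counts in WT, or 442 ± 205 CPM and 1347 ± 546 CPM (SD, n = 3 each). The log2 fold change was −1.83 ± 0.37 (SE; adjusted p = 0.000793 by limma-voom), and edgeR gave 0.234. The calls of both *ahcy* and *chac1* were lost without crkeap1a/b replicate 2, WT replicate 1 or WT replicate 2, at adjusted p-values of 1. That of *chac1* was lost without crkeap1a/b replicate 1, at 0.381. Both were also lost with the replicate block (0.311 and 0.509) and with the letter as a term (0.119 and 0.437). Limma with a trend (0.0960) and RLE factors (0.104) lost the call of *chac1* as well. Of the 16 alternative fits, *ahcy* passed in 10 and *chac1* in 7. *abcc2*, the gene for the canalicular exporter of glutathione conjugates, had 1775 to 4427 counts in crkeap1a/b and 135 to 976 in WT (adjusted p = 0.372 over 6 pools and 2.21e-05 within letter a by limma-voom). *cndp2*, a cytosolic dipeptidase gene, had 89 to 499 counts in crkeap1a/b and 1, 1 and 0 in WT. The pooled ratio was 399, with an exact 95% counting interval of 110.1 to 3299. No WT library rose above the floor of 3 counts, so *cndp2* entered the deposited table through the crkeap1a/b pools alone. *abcc5*, another exporter gene, had 22, 0 and 0 counts in crkeap1a/b and 206 to 1121 in WT. The limma-voom adjusted p-values of *cndp2* and *abcc5* were 0.231 and 0.115. DESeq2 over 6 pools gave 0.0118 for *cndp2*, 0.0677 for *abcc5* and 0.0343 for *abcc2*, and edgeR called none of them. Of the 16 alternative fits, *cndp2* passed in 1, *abcc5* in 0 and *abcc2* in 2.

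Among 13 peroxidase, glutaredoxin and other glutathione-using genes none was called over 6 pools. The smallest p-values belonged to *glrx* (cytosolic glutaredoxin), *ethe1* (mitochondrial persulfide dioxygenase), *gpx3* (the secreted glutathione peroxidase) and *glo1* (glyoxalase). Their log2 fold changes were 4.44 ± 1.66, 5.93 ± 2.67, 1.11 ± 0.53 and 4.74 ± 2.79 (SE); limma-voom gave adjusted p-values of 0.280, 0.533, 0.594 and 0.741. *glrx* and *ethe1* were called higher within letter a, at adjusted p-values of 0.000343 and 0.000317 and log2 fold changes of 1.96 and 3.46. *glrx* was also called without crkeap1a/b replicate 3, at 5.28 and an adjusted p of 0.00273, and not without WT replicate 3, at 1.39 and an adjusted p of 0.570.

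**Figure D4:**
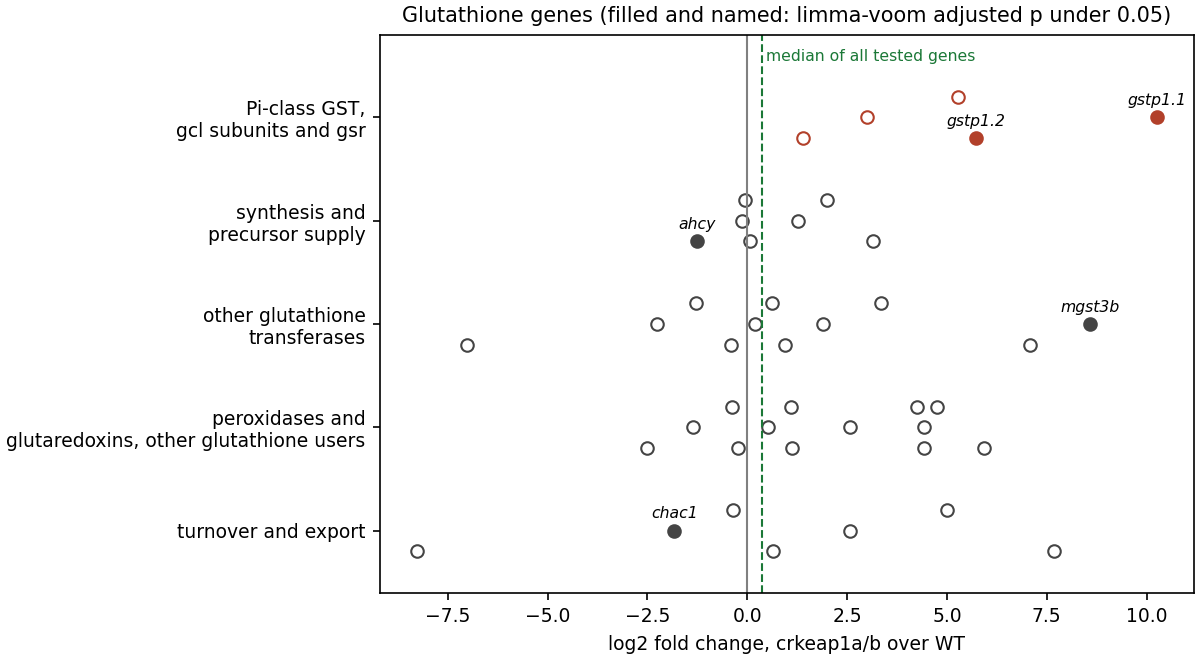
Log2 fold changes of the 5 genes (red, top row) and of 38 other glutathione genes by function (grey), crkeap1a/b over WT, from limma-voom with 6 pools; filled points have an adjusted p under 0.05 and are named, and the dashed line is the median of all genes tested (0.36). The 3 filled grey points are *mgst3b* at 8.58, *ahcy* at −1.25 and *chac1* at −1.83.

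Markers of cell types were read beside these results. All 13 hepatocyte markers were in the table, with summed levels of 34478 to 66789 CPM in crkeap1a/b and 48636 to 84442 CPM in WT. These sums overlapped, while 8 of the hepatocyte markers had negative and 5 positive log2 fold changes, and 1 was called lower. Of 16 exocrine pancreas markers 13 were in the table, and their sum was 7578 to 11240 CPM in crkeap1a/b and 24273 to 39170 CPM in WT, without overlap. All 13 had negative log2 fold changes and 8 were called lower. Of all 6386 genes tested, 2743 had negative log2 fold changes and 38 were called lower. In 319 of them every crkeap1a/b pool was below every WT pool. Skeletal muscle markers (5 of 10 in the table) summed to 211 to 335 CPM in crkeap1a/b and 382 to 1512 CPM in WT, and skin markers (3 of 4) to 66.5 to 121 CPM in crkeap1a/b and 141 to 742 CPM in WT. Cholangiocyte markers (3 of 4, without *epcam*) summed to 1013 to 1184 CPM in crkeap1a/b and 1377 to 1692 CPM in WT. Sums overlapped between groups for erythrocyte (6 of 8), endothelial (3 of 4), intestinal (2 of 5) and leukocyte (1 of 7) markers. The defining leukocyte markers *mpeg1.1*, *lyz* and *mpx* and the intestinal marker *fabp2* were not in the table. The part of these differences in the levels of the glutathione genes was not tested, and in pooled tissue fewer cells of a type cannot be told apart from less RNA per cell.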

How the data were processed

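Per the study's methods, 3′ mRNA libraries (QuantSeq kit, no molecular identifiers mentioned) were sequenced with single-end reads, trimmed, aligned to danRer11 (GRCz11) and counted per gene. The submitters' processing notes name FastQC 0.72, cutadapt 1.16, STAR 2.7.5b, featureCounts 1.6.3 and limma 3.40.6. The authors deposited whole-number counts under Entrez gene IDs, not normalised, in 6637 rows. Of these rows, 135 carried no gene ID, held 9.82% to 13.6% of the counts of a library, and were left out of totals and tests. Symbols came from a RefSeq table of GRCz12tu for 6426 of 6502 IDs; as that is not the authors' build, no coordinates are given. Sequences were not analysed here.

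The main test was limma-voom, the study's own choice, run in R 4.3.3 with edgeR 4.0.16 and limma 3.58.1: filterByExpr, TMM factors, group as the only term, and Benjamini-Hochberg adjustment over all genes. Log2 CPM used a prior count of 2. Alternatives, 17 planned and 1 added after the data were seen, included edgeR's quasi-likelihood test and DESeq2 1.42.0. The code was tested on simulated counts. Counting precision follows from totals of 9491003 to 15030262 counts, with 3 counts equal to 0.175 to 0.367 CPM. Intervals on counts cover counting error only, and not the many genes at 0 in the replicate 3 libraries.

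The genes and lists were chosen with earlier results of these data known. Genes named were the 5 members, *keap1a* and *keap1b*, the 2 genes most correlated with each member, and, in each list, the genes called and the 4 with the smallest p. Exceptions are marked.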

Additional observations from a re-analysis of the deposited data

How the results depend on the processing

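Fits without 1 pool aside, the call of *gstp1.1* was lost with 6 alternatives. These included limma with a trend (8.92), RLE factors (10.19) and library size only (10.40). The others were the description letter as a term (10.20), the 4 pools of letter a (9.03) and the replicate block (10.20). The call of *gstp1.2* (5.55) and of the summed pair (5.57) was lost with the letter as a term. Among the fits without 1 pool, *gstp1.1* was called in 1, and *gstp1.2* and the pair in 3 each. *gclc* (2.48) and *gsr* (4.35) passed within letter a. With 1 pool left out, the log2 fold changes ran from 9.39 to 10.79 for *gstp1.1*, from 5.02 to 6.22 for *gstp1.2* and from 5.05 to 6.24 for the pair. The log2 ratio of *gclc* to *gclm* was 0.83 within letter a and ran from −3.86 to 0.62 with 1 pool left out.

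The number of genes higher was 16 in edgeR, 103 in DESeq2, 9 with RLE factors, 1 with the replicate block, 7 with the letter as a term, 149 within letter a, 24 with the rows without a gene ID kept (added after the data were seen) and 62 at an adjusted p under 0.1. It ran from 0 to 125 with 1 pool left out. Lower genes numbered 6 in edgeR, 22 in limma with a trend, 2 with the replicate block, 10 with the letter as a term and 139 within letter a, and from 1 to 71 with 1 pool left out. Of the 38 listed glutathione genes, 0 were called in edgeR, 5 in DESeq2, 1 with RLE factors, 0 with the replicate block (11 at an unadjusted p under 0.05), 0 with the letter as a term (13), 9 within letter a, and 0 to 5 with 1 pool left out. Over all 6386 genes tested by limma-voom, 412 had an unadjusted p under 0.05 with the replicate block. With the letter as a term 570 did. Keeping rows without a gene ID ended the limma-voom call of *mgst3b* (adjusted p 0.0606) and of *xrcc5* (0.0679). The call of *xrcc5* in the main fit, at 0.0452, held in only 2 of the 16 alternative fits.

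The sign of *keap1a* turned within letter a (3.91) and ran from −3.37 to 2.62 with 1 pool left out. That of *keap1b* turned in edgeR (0.066), DESeq2 (0.00096) and letter a (0.016) and ran from −3.47 to 3.07. *slc3a2b* ran from −1.54 to 4.63.

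Pools of the same title number hold different animals. Their deviations from group means had correlations of 0.043, 0.0099 and 0.074, and 2 of 6 pools correlated best with their own title number. The number in the descriptions crosses the title numbers and entered neither the block nor these correlations, so pairing by it was not tested. Calls kept or lost with the replicate block therefore say nothing about pairing by description. With the replicate block *gstp1.2* stayed called (adjusted p 0.0403). The cause of these changes was not tested. DESeq2 gave no adjusted p for 1659 genes. Fits without 1 pool leave 2 pools in a group, whose spread is pooled with that of the other group and, in limma-voom, with that of all genes. Of the 5 genes *gclm* moved most with a single pool: its log2 fold change was 5.28 over 6 pools and 1.96 without WT replicate 3, a library with 53.2% of genes at 0 counts.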
